A study of Homo sapiens with 2 samples.

Results

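The phase II conjugation genes examined here are 38 named genes of the 60623 entries counted. They were listed by name and family, but with earlier results of these data known. The list holds 12 UDP-glucuronosyltransferases (UGT), 7 cytosolic sulfotransferases (SULT) and 12 cytosolic and mitochondrial glutathione transferases (GST). It also holds 3 microsomal glutathione transferases (MGST) and a group of 4. That group is the arylamine acetyltransferases NAT1 and NAT2, the thiopurine methyltransferase TPMT and the microsomal epoxide hydrolase EPHX1. All 38 were found in the count tables. They were measured in HepG2 cells, a human hepatocellular carcinoma line of wild-type genotype in the labels that is widely used as a hepatocyte model. The FFA group received 1 mM free fatty acids, oleic and palmitic acid bound to albumin, for 24 h. The FFA + 9-cis-RA group received the same fatty acids with 10 μM 9-cis-retinoic acid, a ligand of retinoid X and retinoic acid receptors. The paper's results describe a co-treatment, whereas its methods place 24 h of 9-cis-RA after the fatty acids. The order of exposure is therefore unclear. Each group is 1 library, both of the batch named Batch 1, so a difference compares 2 libraries and has no replicate check. Both groups carry the fatty acid load, and cells without it were not analysed here.

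Conjugation is the step of drug and hormone clearance in which a polar group is attached to a lipophilic molecule so that it can leave the cell. The UGT enzymes of the endoplasmic reticulum attach glucuronic acid to bilirubin, bile acids, steroids and drugs, the SULT enzymes attach sulfate, and the glutathione transferases attach glutathione to reactive electrophiles. In the liver many of these genes are read under the control of nuclear receptors that pair with the retinoid X receptor. The comparison asks how the conjugation genes of fatty acid-loaded HepG2 cells differ when a ligand of that receptor is present.

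The libraries held 60821539 counts (FFA) and 57669670 counts (FFA + 9-cis-RA), so that 3 counts, the floor used here, correspond to 0.0493 and 0.0520 CPM. The retinoid target CYP26A1, a retinoic acid hydroxylase, was at 4 counts without and 709 with 9-cis-RA, in the direction of the labels. The 6 hepatocyte and hepatoma markers ranged from 341 to 294592 counts with FFA alone and from 278 to 296345 with 9-cis-RA. Of the 7 markers of other cells, PTPRC and DCN were at 0 in both libraries and none exceeded 184 counts.

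Values are given as raw counts in the FFA library and then in the FFA + 9-cis-RA library. The log2 fold change sets FFA + 9-cis-RA against FFA on counts divided by size factors, plus a pseudocount of 1, and was computed for the 20431 genes whose 2 counts summed to 10 or more. The interval in parentheses is an exact 95% binomial (Clopper-Pearson) interval that covers counting error only. No p-value is given.

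Of the 38 genes, 26 reached 100 counts when both libraries were added, 5 had 10 to 99, 4 had 1 to 9, and UGT1A4, UGT2B15 and UGT2B17 were at 0 in both. Among the 31 that could be compared, 3 lay above a log2 fold change of 1 against 3.37% of all genes compared, and 6 lay below -1 against 4.9% of all genes. The 3 were UGT1A1, UGT1A9 and SULT2B1, of which only UGT1A1 had at least 100 counts. The 6 were UGT2B4, UGT2B7, UGT2B10, UGT2B11, SULT1C2 and SULT2A1, and 3 of these sat so close to the threshold that removing the trend with gene length moved them above -1, to -0.99 for UGT2B4 and SULT2A1 and -0.98 for UGT2B11.

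The counting interval lay above 0 for 5 of the 31 genes and below 0 for 16, against 22.5% and 25.7% of all genes compared. Restricted to the 26 genes with at least 100 counts, 1 lay above 1 and 5 below -1, where 0.548% and 1.76% of the 14411 genes of that depth did so. In that restricted set the interval lay above 0 for 3 genes and below 0 for 15, against 29.1% and 32.2%. The median over the 31 genes was -0.14, beside -0.020 over all genes compared. Because the genes were listed with earlier results of these data known, these counts are not those of a list made blind to the data. In a bulk library, fewer cells carrying a transcript and less of it per cell cannot be told apart.

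**Figure D1:**
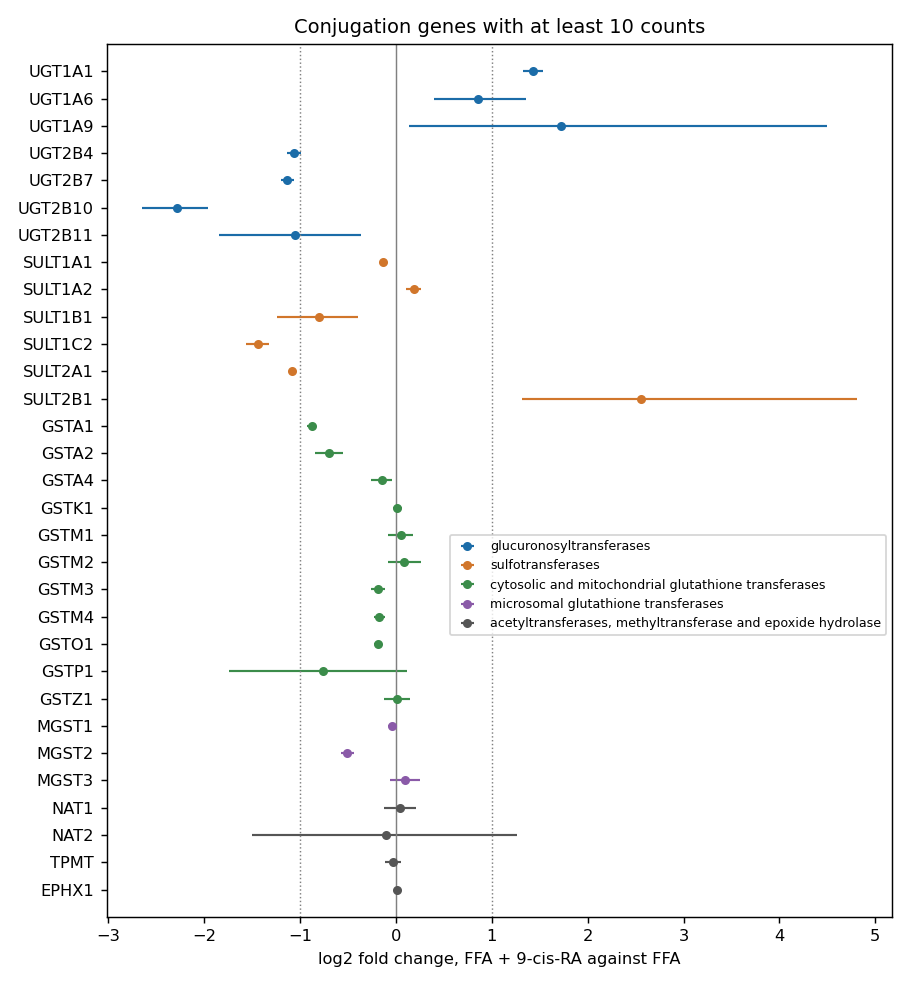
Log2 fold change of FFA + 9-cis-RA against FFA (horizontal axis) for the 31 conjugation genes with at least 10 counts, 1 gene per row and colored by family, with bars for the 95% counting interval of 1 library per group and dotted lines at -1 and 1. The UGT2B rows lie to the left of -1 and UGT1A1 at 1.43, while the rows of the acetyltransferases, TPMT and EPHX1 sit near 0.

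The glucuronosyltransferases differed between the libraries in both directions. UGT1A1, the enzyme that conjugates bilirubin, was 2.70-fold higher with 9-cis-RA, and the UGT2B enzymes, which conjugate bile acids, steroid hormones and drugs, were 2.08-fold to 4.87-fold lower. The sulfotransferases SULT2A1 and SULT1C2 and the glutathione transferases GSTA1 and GSTA2 were also lower, while TPMT, EPHX1 and most other glutathione transferases differed little.

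To show what lies in front of the lower genes, the 250 bases before the transcription start of 5 of them are printed from RefSeq on GRCh38.p14, 5′ to 3′ on the strand of the gene. They are the UGT2B genes and sulfotransferases below -1 for which a window was at hand. UGT2B7 is chr4:69096224-69096473 on the plus strand, UGT2B10 is chr4:68815744-68815993 on the plus strand, UGT2B11 is chr4:69214749-69214998 on the minus strand, SULT2A1 is chr19:47886316-47886565 on the minus strand and SULT1C2 is chr2:108288645-108288894 on the plus strand. Capitals mark every match of the nuclear receptor half-site AGGTCA or the antioxidant response core TGACNNNGC, each searched on both strands.
UGT2B7: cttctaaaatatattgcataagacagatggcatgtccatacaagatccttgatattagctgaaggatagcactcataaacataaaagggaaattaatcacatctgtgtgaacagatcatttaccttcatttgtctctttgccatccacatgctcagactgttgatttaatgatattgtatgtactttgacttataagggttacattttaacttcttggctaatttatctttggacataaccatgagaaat
UGT2B10: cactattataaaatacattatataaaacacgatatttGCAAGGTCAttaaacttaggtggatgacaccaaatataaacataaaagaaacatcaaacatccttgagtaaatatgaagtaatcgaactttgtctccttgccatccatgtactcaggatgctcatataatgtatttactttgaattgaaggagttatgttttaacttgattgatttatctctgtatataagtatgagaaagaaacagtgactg
UGT2B11: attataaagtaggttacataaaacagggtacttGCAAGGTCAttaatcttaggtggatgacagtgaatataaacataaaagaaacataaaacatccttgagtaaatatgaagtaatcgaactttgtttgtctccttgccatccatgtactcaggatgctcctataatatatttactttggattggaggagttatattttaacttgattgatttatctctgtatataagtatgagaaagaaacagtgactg
SULT2A1: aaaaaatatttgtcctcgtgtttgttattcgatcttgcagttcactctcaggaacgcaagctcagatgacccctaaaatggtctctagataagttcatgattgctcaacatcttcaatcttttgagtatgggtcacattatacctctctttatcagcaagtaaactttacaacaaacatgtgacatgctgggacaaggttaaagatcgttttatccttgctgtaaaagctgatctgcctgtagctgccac
SULT1C2: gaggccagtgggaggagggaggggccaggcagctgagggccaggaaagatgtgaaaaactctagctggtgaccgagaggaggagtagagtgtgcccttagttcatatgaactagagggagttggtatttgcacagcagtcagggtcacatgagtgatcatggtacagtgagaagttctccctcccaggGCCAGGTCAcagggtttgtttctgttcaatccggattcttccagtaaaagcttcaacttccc

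The half-site began 210 bases before the start in UGT2B10, 214 bases before it in UGT2B11 and 59 bases before it in SULT1C2, and in each the antioxidant core covered it on the opposite strand. Read on the strand of the half-site, both motifs end in GTCA, so a single stretch of letters matched both. The tallies of the motifs below are therefore not independent of each other. Neither motif had a match in the windows of UGT2B7 and SULT2A1, which were lower as well. The windows of UGT2B10 and UGT2B11 were alike, with 93.1% identical letters among the aligned bases, and UGT2B7 shared 72.4% with UGT2B10 and 73.0% with UGT2B11. A gene can have several windows. AGGTCA was present in 4242 of 35116 RefSeq windows of this length (12.1%) and in 8 of the 38 windows of the conjugation genes (21.1%). Counted by gene, with any window sufficing, it was present for 14.6% of all genes and for 8 of the 31 conjugation genes that had a window. TGACNNNGC was present in 10.9% of all windows and 10 of those 38, and by gene for 13.2% of all genes and 10 of the 31, among them EPHX1, whose counts hardly differed between the libraries. A match is a description of these letters and not of binding. No window was matched for MGST2, NAT1, NAT2, SULT1A1, SULT1A2, UGT2B17 and UGT2B4, and RefSeq starts can differ from the starts in the count tables, as they do for UGT2B7 and SULT1C2.

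Among the UGT1A genes, of which those listed span chr2:233671898-233773300 (plus strand) and which share their last exons while each has a first exon of its own, UGT1A1 held almost all of the counts. UGT1A1 counts numbered 1086 with FFA alone and 2874 with 9-cis-RA, which gives a log2 fold change of 1.43 (1.33 to 1.53). Only 0.201% of the genes with at least 100 counts had a higher value. UGT1A6, which conjugates planar phenols, had 58 and 104 counts and a log2 fold change of 0.86 (0.39 to 1.36). UGT1A9 had 3 and 12 counts, a ratio with the wide interval of 0.14 to 4.49, and UGT1A3 had 2 and 6 counts.

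All UGT1A genes with counts on the list were thus higher in the FFA + 9-cis-RA library, although at counts of 12 or fewer for UGT1A9 and UGT1A3. UGT1A1 made up 94.1% of the counts of all 9 UGT1A genes without 9-cis-RA and 95.7% with it. Reads that overlap several genes were not counted, so these counts depend on the unshared part of each gene. How pairs with a mate in a shared exon and a mate in an unshared exon were counted was not examined. For UGT1A1, 49.9% of the exonic bases were shared with another gene on the same strand and 2240 of 4467 bases were not. The shared part is 80.0% for UGT1A3, 63.9% for UGT1A4, 62.4% for UGT1A9 and 44.2% for UGT1A6, and a count of 0 for UGT1A4 is therefore a statement on its unshared exons.

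The UGT2B genes lie together on chromosome 4, and every one with enough counts to compare was lower in the FFA + 9-cis-RA library. UGT2B7 (chr4:69051363-69112987), which glucuronidates morphine and steroids, had 5787 and 2589 counts, or -1.13 as log2 fold change (-1.20 to -1.07). UGT2B4 (chr4:69480165-69526014), known for bile acid conjugation, had 4998 and 2342 counts and a log2 fold change of -1.07 (-1.14 to -0.99). UGT2B10 (chr4:68815994-68832023), an N-glucuronidation enzyme for nicotine and other amines, had 436 and 87 counts and the lowest log2 fold change of the 31 genes, -2.28 (-2.65 to -1.96).

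UGT2B10 stood apart from UGT2B4 and UGT2B7, and 0.0833% of the genes with at least 100 counts had a value below that of UGT2B10. Relative to UGT2B4 in the same library it was lower by a log2 ratio of -1.23 (-1.59 to -0.89), and relative to UGT2B7 by -1.16 (-1.52 to -0.82). UGT2B7 and UGT2B4 did not separate from each other, with a log2 change in their ratio of -0.067 (-0.17 to 0.031). UGT2B11 was rare, at 52 and 24 counts, with a log2 fold change of -1.06 (-1.85 to -0.36). UGT2B15 and UGT2B17, which conjugate androgens, had no count in either library, and 12.7% of the 100-base windows of their transcripts are identical between them. No 100-base window of UGT2B4 or UGT2B7 was found in another gene, while 6.27% of those of UGT2B10 and 8.26% of those of UGT2B11 were.

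Ratios of counts within a library do not depend on how the libraries are scaled. Each count of UGT2B7 was matched by 0.188 counts of UGT1A1 with FFA alone and by 1.11 with 9-cis-RA, a log2 change of 2.56 (2.44 to 2.69). Against UGT2B4 the ratio went from 0.217 to 1.23, and against UGT2B10 from 2.49 to 33.0. UGT2B7 and UGT2B4 counts were each more numerous than those of UGT1A1 in the FFA library and less numerous in the other.

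**Figure D2:**
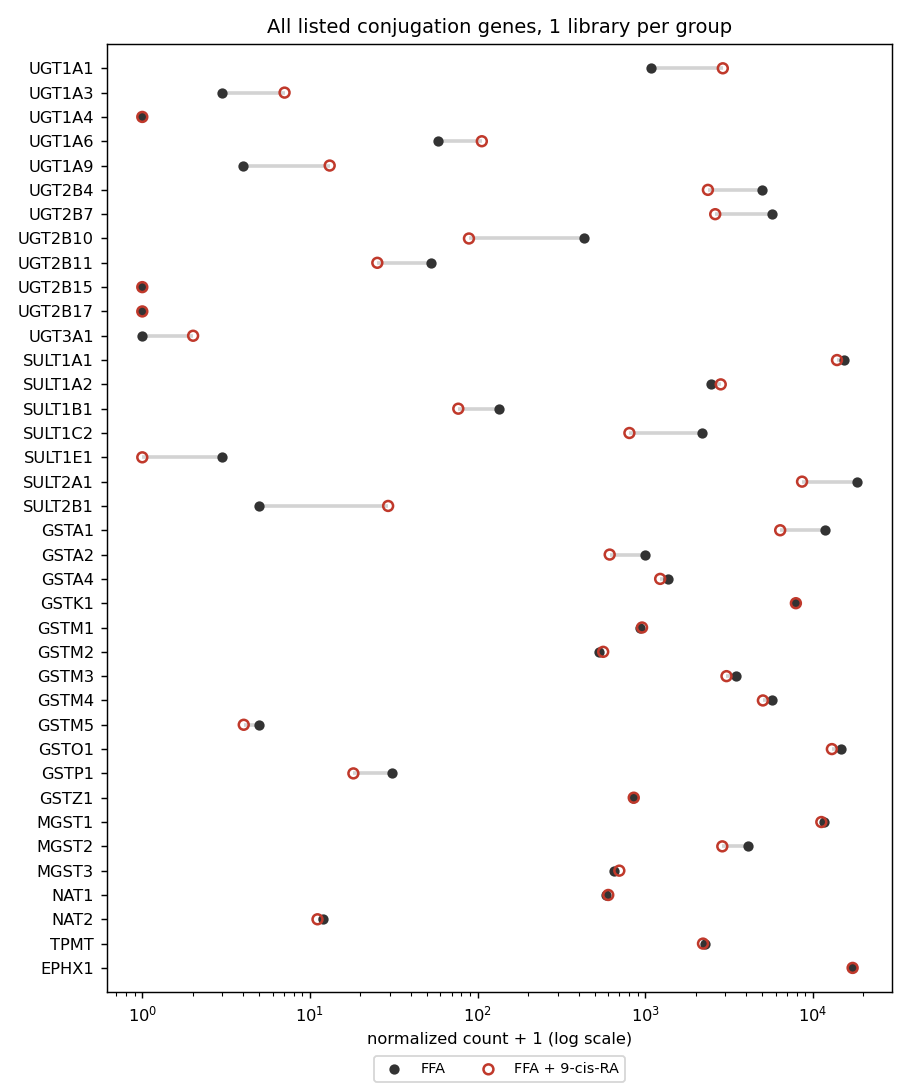
Normalized count plus 1 on a log axis for each of the 38 conjugation genes, with the FFA library as filled points and the FFA + 9-cis-RA library as open circles joined by a grey line, 1 library per group. UGT1A1 moves to the right and UGT2B4, UGT2B7, UGT2B10, SULT1C2, SULT2A1 and GSTA1 to the left, and genes at the left edge had no counts.

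To compare levels between genes, counts were divided by the unshared exonic length and by the library's counts, which gives an FPKM over counted fragments, called the level per kilobase below. On this scale UGT2B7 was highest of the glucuronosyltransferases in the FFA library at 42.1, followed by UGT2B4 at 32.8 and UGT1A1 at 7.97. In the FFA + 9-cis-RA library UGT1A1 was highest at 22.2, with UGT2B7 at 19.9 and UGT2B4 at 16.2. UGT1A1 thus took 9.24% of the summed glucuronosyltransferase level without 9-cis-RA and 37.0% with it. The UGT2B genes together took 90.2% and 61.2%, and the sum over all 12 genes was 86.3 and 60.1.

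These shares depend on the length used for UGT1A1. With its whole exonic length, shared exons included, its level per kilobase in the FFA + 9-cis-RA library was 11.2, and its share in the 2 libraries was 4.87% and 23.0%. The UGT2B share was then 94.9% and 76.0%. On that scale UGT1A1 stayed behind UGT2B7 and UGT2B4 in both libraries.

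**Figure D3:**
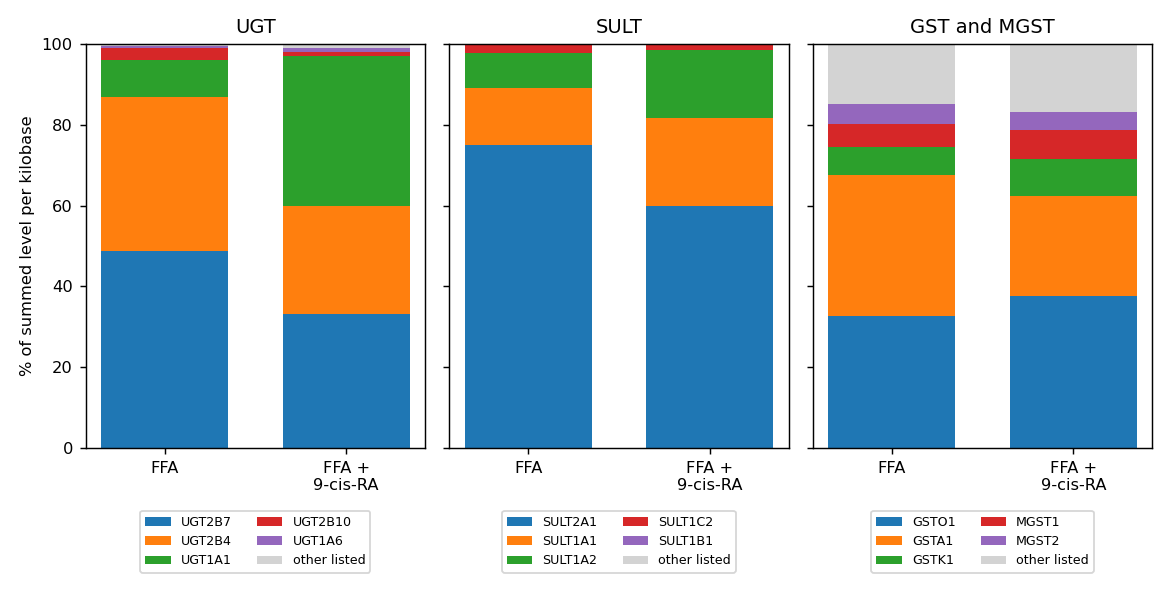
Share of each family's summed level per kilobase of unshared exon (percent, vertical axis) taken by its leading genes in the FFA and the FFA + 9-cis-RA library, 1 library per group, for the UGT, SULT and glutathione transferase families. UGT1A1 widens from 9.24% to 37.0% of the UGT bar while UGT2B7 narrows from 48.8% to 33.0%, and SULT2A1 narrows from 74.9% to 59.8% of the SULT bar.

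Of the sulfotransferases, the abundant steroid enzyme and a SULT1C enzyme were lower, and the phenol enzymes were close to level. SULT2A1 (chr19:47870467-47886315, minus strand), which sulfates dehydroepiandrosterone and bile acids, had 18439 and 8536 counts and a log2 fold change of -1.08 (-1.12 to -1.05). SULT1C2 (chr2:108288639-108309915) had 2204 and 796 counts and a log2 fold change of -1.44 (-1.56 to -1.32), and relative to SULT2A1 it was lower by a further log2 ratio of -0.36 (-0.48 to -0.23). SULT1B1, which sulfates thyroid hormones and lies beside the UGT2 genes at chr4:69721167-69787961, had 134 and 75 counts and a value of -0.80 (-1.24 to -0.39).

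The paralogs SULT1A1 and SULT1A2, phenol sulfotransferases side by side on chromosome 16, differed in sign. SULT1A1 was at -0.14 (-0.17 to -0.10) on the log2 scale, from 15456 and 13795 counts, and SULT1A2 at 0.19 (0.11 to 0.26), from 2504 and 2793 counts. Their count ratio within a library changed by 0.32 (0.24 to 0.41) on the log2 scale. Of their 100-base transcript windows, 5.89% for SULT1A1 and 4.52% for SULT1A2 occur in another gene, SLX1A-SULT1A3 among them for both. Pairs that mapped to several places were not counted, so such windows can lose reads. Their bearing on the difference in sign was not tested.

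SULT2B1, which sulfates cholesterol, reached 2.56 (1.32 to 4.81) on the log2 scale from only 4 and 28 counts. The estrogen sulfotransferase SULT1E1 had 2 and 0 counts. SULT2A1 kept the highest level per kilobase of the family, 159 without and 77.7 with 9-cis-RA, and its share of the family's sum was 74.9% and 59.8%. SULT1A1 followed at 14.2% and 21.8%. The counts of SULT2A1 exceeded those of SULT1A1 by a ratio of 1.19 in the FFA library, and the ratio was 0.619 in the other.

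None of the 11 glutathione transferases compared passed a log2 fold change of 1 in either direction, and the lowest was GSTA1 of the alpha class. GSTA1 (chr6:52791371-52803860), the main hepatocyte enzyme of its class, had 11869 and 6321 counts and a log2 fold change of -0.88 (-0.93 to -0.84). GSTA2, its neighbour on chromosome 6, had 1004 and 607 counts and a value of -0.70 (-0.85 to -0.55). GSTA4, which acts on the lipid peroxidation product 4-hydroxynonenal, had 1375 and 1215 counts and a value of -0.15 (-0.26 to -0.038).

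GSTA1 and GSTA2 differed from GSTA4 by more than the counting error: the ratio of GSTA1 to GSTA4 changed by -0.73 (-0.85 to -0.61). The ratio of GSTA1 to GSTA2 changed by -0.18 (-0.34 to -0.029), and 9.85% of the GSTA1 windows of 100 bases are also in GSTA2. GSTA1 had the highest level per kilobase of the glutathione transferases in the FFA library, 155, and GSTO1, the omega class enzyme with 14958 and 12858 counts, followed at 145. In the FFA + 9-cis-RA library GSTO1 was ahead at 132 and GSTA1 was at 86.9.

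The mu class on chromosome 1 stayed within a narrow range. GSTM4 had 5726 and 4985 counts with a log2 fold change of -0.17 (-0.23 to -0.12), and GSTM3 had 3510 and 3023 counts with -0.19 (-0.26 to -0.12). The intervals of GSTM1 and GSTM2 held 0, at log2 fold changes of 0.049 and 0.086. In GSTM1 22.3% of the exonic bases are shared with a neighbouring gene and 29.1% of the 100-base windows occur elsewhere, so its count covers part of the gene. GSTM5 had 4 and 3 counts and GSTP1, the pi class enzyme, 30 and 17, the latter with a log2 fold change of -0.76 and an interval that held 0 (-1.74 to 0.11).

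GSTK1 of mitochondria and peroxisomes had 7919 and 7842 counts, and GSTZ1 of tyrosine breakdown had 854 and 845. Their log2 fold changes were 0.014 (-0.032 to 0.059) and 0.012 (-0.13 to 0.15). GSTO1, at -0.19 (-0.22 to -0.16), was close to GSTM3.

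Of the 3 microsomal enzymes MGST2 was lowest. MGST2, which can make leukotriene C4, had 4138 and 2854 counts and a log2 fold change of -0.51 (-0.58 to -0.44). MGST1, the abundant microsomal form of liver, had 11690 and 11124 counts and a value of -0.044 (-0.082 to -0.0064) that changed sign, to 0.0052, with total-count scaling, and MGST3 had 661 and 693 counts and a value of 0.096 (-0.060 to 0.25). The ratio of MGST2 to MGST1 changed by -0.46 (-0.54 to -0.39).

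The acetyltransferases, the methyltransferase and the epoxide hydrolase were the flattest group, with intervals that held 0 for all 4. EPHX1, which opens epoxides to diols, was at 0.011 (-0.019 to 0.042) from 17293 and 17097 counts. Its value moved past that interval to 0.060 with total-count scaling. Removing the trend with gene length gave 0.087, and removing the trend with expression gave 0.055. TPMT had 2284 and 2189 counts and a value of -0.034 (-0.12 to 0.052), NAT1 had 589 and 595 counts, and NAT2 had 11 and 10. In all, 8 of the 26 genes with at least 100 counts had an interval holding 0, and their bounds ran from -0.13 to 0.26, so a larger difference between these 2 libraries was outside the counting error of each.

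The lower values of UGT2B4, UGT2B7, SULT2A1 and GSTA1 stood beside lower counts of some hepatocyte and hepatoma markers. Albumin (ALB) had 186609 and 112866 counts and alpha-fetoprotein (AFP) 273242 and 134862, and TTR and GPC3 were lower too, while APOA1, at 109241 and 110072, and SERPINA1, at 294592 and 296345, were not. The part of such a shift in the conjugation genes was not tested.

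The order of the genes along chromosome 4 was then examined, a choice made after the values were seen. The stretch from UGT2B17 to SULT1E1, chr4:68537184-69860145, holds 52 entries over 1323 kb, of which 16 had at least 10 counts. The interval lay below 0 for 11 of the 16, above 0 for 0, and held 0 for 5, where 25.7% and 22.5% of all genes compared lay below and above 0. Of the 11, 5 are the listed genes UGT2B4, UGT2B7, UGT2B10, UGT2B11 and SULT1B1, whose low values led to the choice of the stretch, so their count is no separate result. The other 6 are among the 11 compared entries that are not on the list. UGT2A3, a glucuronosyltransferase not on the list, had 8920 and 4675 counts there and a log2 fold change of -0.90 (-0.96 to -0.85). The unprocessed pseudogene AC111000.2, inside the span of UGT2B7, had 215 and 67 counts and a value of -1.64 (-2.07 to -1.25).

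Outside the stretch the values were mostly near 0. Of the 5 protein-coding genes with at least 100 counts before it, the log2 fold changes ran from -0.089 for UBA6 to 0.28 for CENPC. NOA1 and POLR2B among them lie 11.6 and 11.5 Mb away, and the other 8 flanking genes within 1.04 Mb. Of the 5 after it, ODAM, an enamel matrix gene, had 1591 and 619 counts and a value of -1.33 (-1.47 to -1.20), and the other 4 ran from -0.031 to 0.26. Several entries of the stretch are related in sequence to each other, so they are not independent.

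**Figure D4:**
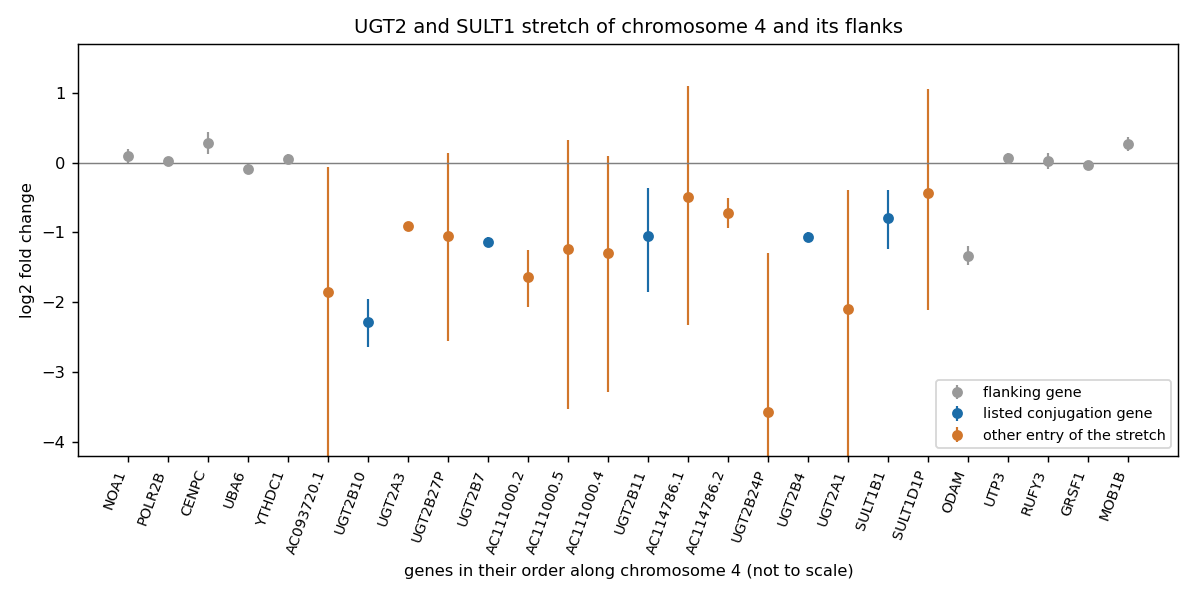
Log2 fold change (vertical axis, with 95% counting intervals) of the genes of the UGT2 and SULT1 stretch of chromosome 4 with at least 10 counts, in their order along the chromosome and not to scale, between the nearest 5 protein-coding genes on each side with at least 100 counts, of which NOA1 and POLR2B are 11.6 and 11.5 Mb from the stretch. All 16 points of the stretch lie below 0, as does ODAM among the flanking genes; the lower ends of 3 intervals run off the axis, and UGT2B24P had 0 counts in the FFA + 9-cis-RA library, so its height depends on the pseudocount.

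Genes that feed, follow or control conjugation were taken from 7 lists. Of 74 genes listed, 73 were matched and 59 compared, with intervals above 0 for 17, below 0 for 26 and holding 0 for 16, and a median of -0.11. The shares over all genes compared are 22.5% above and 25.7% below 0, and 29.1% and 32.2% at 100 counts or more, so the 17 are near the background, and the counts of each list below are to be read against the same shares. A log2 fold change above 1 was found for 1 of them, UGT8 with 6 and 15 counts, and below -1 for 2, UGT2A1 with 12 and 2 counts and SULT1C4 with 46 and 14. Genes are named below by a rule on the interval bound nearest to 0 at 100 counts or more.

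Other conjugation enzymes, 16 compared, had 8 intervals below 0 and 0 above it, beside 25.7% and 22.5% of all genes, with a median of -0.42. Beside UGT2A3, the rule named BAAT, which joins bile acids to glycine and taurine, with 149 and 79 counts and a value of -0.88 (-1.30 to -0.48), and GSTO2 with 2457 and 1691 counts and -0.51 (-0.60 to -0.42).

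The supply of the donor molecules did not move as a block. For UDP-glucuronic acid, UGP2, which makes UDP-glucose, was at -0.40 (-0.45 to -0.35) and UGDH, which oxidizes it, at -0.18 (-0.21 to -0.15), whereas SLC35D1, a carrier of UDP-glucuronic acid into the endoplasmic reticulum, was at 0.37 (0.31 to 0.42). For the sulfate donor, 5 of 7 intervals lay below 0, and PAPSS2, a synthase of the activated sulfate PAPS, had 574 and 296 counts and a log2 fold change of -0.93 (-1.14 to -0.72). The sulfate transporters SLC26A1 and SLC26A2 were at -0.25 and 0.23, and SLC35B2, which carries PAPS into the Golgi, at -0.17.

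For glutathione, 3 of 6 intervals lay above 0 and 1 below. The cystine transporter SLC7A11 had 4804 and 6457 counts and a value of 0.45 (0.40 to 0.51), and GCLM, the modifier subunit of the enzyme that limits glutathione synthesis, had 4956 and 6411 counts and a value of 0.40 (0.35 to 0.45). Its catalytic partner GCLC was at 0.077 (0.024 to 0.13), and GSR, which reduces oxidized glutathione, at -0.11 (-0.15 to -0.075).

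The list for removal of conjugates had 5 of 9 intervals above 0 and 3 below. Which of its sulfatases and peptidases act on products of the 38 genes was not examined. The steroid sulfatase STS, which reverses the reaction of SULT2A1 on steroids, had 1268 and 1867 counts and a log2 fold change of 0.59 (0.48 to 0.69). The lysosomal sulfatase ARSB was at 0.52 (0.46 to 0.59) and GGT1, which starts the breakdown of glutathione conjugates, at 0.44 (0.24 to 0.66), while the peptidases DPEP1 and CNDP2 were at -0.52 and -0.16.

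Of 5 exporters, ABCC2, the canalicular pump for glucuronides and glutathione conjugates, had 55295 and 40865 counts and a value of -0.41 (-0.43 to -0.39). ABCC1 was at 0.18 (0.11 to 0.25) and ABCG2 at 0.33 (0.11 to 0.55), and the intervals of ABCC3 and ABCC4 held 0.

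Among 13 regulators, 5 intervals lay above 0 and 6 below, with a median of -0.0055. NR1H4, the bile acid receptor FXR, had 2305 and 1260 counts and a log2 fold change of -0.84 (-0.94 to -0.74), the lowest of the list. RXRA, the retinoid X receptor alpha itself, had 8291 and 5978 counts and a value of -0.44 (-0.49 to -0.40), and the pregnane X receptor NR1I2 was at -0.33 (-0.45 to -0.22). ARNT, the partner of the aryl hydrocarbon receptor, was at 0.32 (0.22 to 0.42), RARA at 0.20 and KEAP1 at 0.15.

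**Figure D5:**
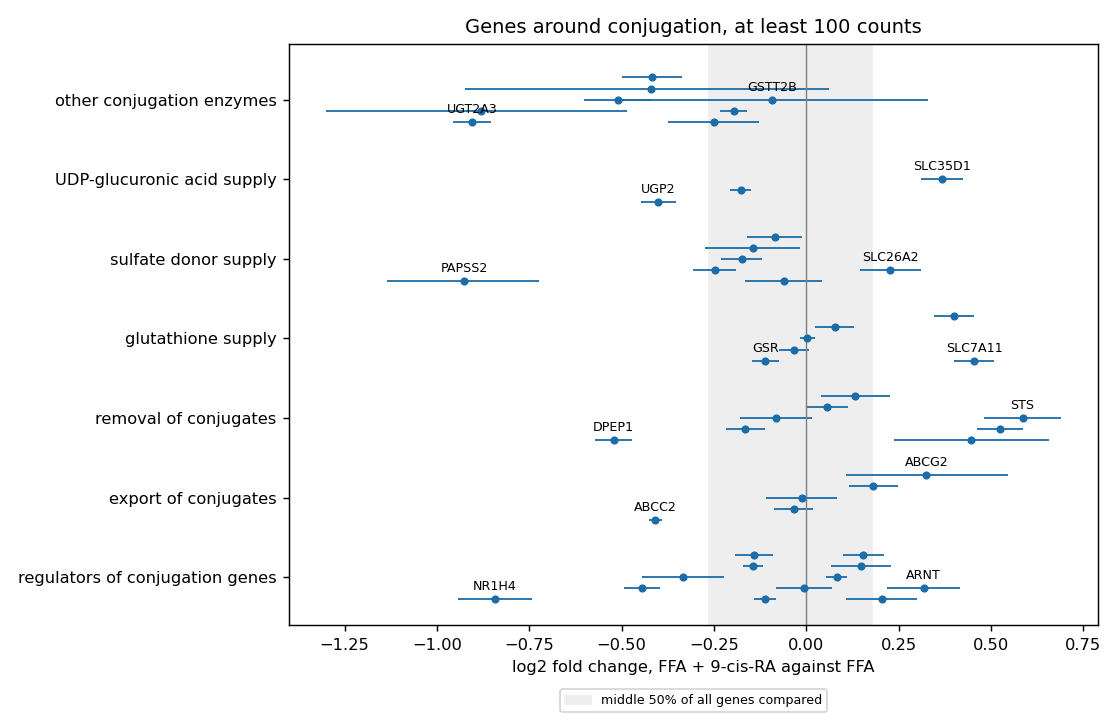
Log2 fold change (horizontal axis, with 95% counting intervals) of genes around conjugation with at least 100 counts, 1 row per list and 1 library per group, with the grey band holding the middle 50% of all genes compared (-0.26 to 0.18). Labels name the lowest and the highest gene of each row, and PAPSS2, UGT2A3 and NR1H4 lie far left of the band while STS and SLC7A11 lie to its right.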

How the data were processed

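Poly(A)-selected, stranded RNA-seq libraries of HepG2 cells, 1 per group, were analysed from the gene counts deposited by the authors. Per the file headers, the authors counted read pairs per gene with featureCounts 2.0.1 (strand setting 2), without pairs that were multi-mapped or touched more than 1 gene, and per the labels the build was GRCh38. The aligner and annotation release are not given in the sources used here. The exon lengths in the deposited tables (unit other) were used only to remove the trend with gene length. Levels per kilobase used lengths rebuilt from the exon coordinates deposited with the counts. Exon sharing came from the same deposited coordinates. Of the 60623 entries, 76.9% were placed as in GENCODE 29, which gave gene types and the 100-base transcript windows. Protein sequences were not used here.

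Size factors came from DESeq2 1.42.0, and TMM factors from edgeR 4.0.16 as an alternative, in R 4.3.3. Other steps used Python 3.11.15 with scipy 1.17.1, and were checked on simulated counts. With 1 library per group no model was fitted. The minimum was 10 counts, the pseudocount 1 and the threshold a log2 fold change of 1. The pseudocount understates differences of rare genes, and counts from read pairs without molecular identifiers are not independent molecules. Members with at least 100 counts are given in full, and up to 3 higher and 3 lower genes of each other list. The members and lists were chosen with earlier results of these data known. GSTT1 was not analysed here.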

Additional observations from a re-analysis of the deposited data

How the results depend on the processing

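Every direction of the 31 genes compared was kept under all alternatives except for GSTZ1, MGST1, NAT2 and TPMT, and 18 of 186 values moved past their counting interval. Scaling (TMM, total counts) and pseudocounts of 0.1 and 5 left the counts above 1 and below -1 within 1.5 times, and the largest shift of the median of all genes was 0.049, with total counts. Genes above 1 numbered 5 with no minimum count, and 1 with at least 50 counts or, chosen after seeing the data, without the UGT1A genes. Intervals above 0 numbered 3 and 2 under the last 2 of these. Removing the trend with gene length left 3 genes below -1. The median for UDP-glucuronic acid supply (-0.18) was -0.13 under total-count scaling, -0.15 after removal of the length trend and -0.13 after removal of the expression trend, and that for glutathione supply (0.040) was 0.089, 0.079 and 0.080 in the same order. The comparison with genes of at least 100 counts was also chosen after seeing the data. No paired analysis was possible because each group has 1 library, and no replicate could be left out. Depth limits the rare genes: below 3 counts a gene was at or under the floor.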
